A study of Anopheles stephensi with 4 samples.

Results

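Spliced transcripts assembled from the spaces between annotated genes were examined in 4 tissues of the malaria mosquito Anopheles stephensi. They were taken as the transcripts that the deposited annotation marks as intergenic (class code u, no overlap with a reference gene) and that have 2 or more exons. By this rule 920 of the 25794 transcripts of the annotation were members, in 693 assembled genes, and all 920 had a deposited value in every tissue. The neighbouring classes were 1776 intergenic transcripts with a single exon and 10490 spliced transcripts that match a reference gene model.

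The samples were midgut, Malpighian tubules, ovary and fat body from adult females fed on sugar, with 1 library per tissue (below, the tubules are the Malpighian tubules). The mosquitoes were reared at a humidity of 70%, a temperature of 27 °C and a light period of 12 h. The labels do not say how many mosquitoes gave each RNA. Each library was sequenced on 2 lanes as technical repeats, and the libraries held between 27490192 (midgut) and 36316831 (Malpighian tubules) estimated fragments. Tissue differences are therefore differences between 4 libraries with no replicate check. No p-value is given, also not between classes of transcripts, because transcripts of the same libraries are not replicates. The files give reference genes by identifier without a name, so the tissues could not be checked against their marker genes.

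Intergenic transcripts of a newly assembled genome come from several kinds of unit. Some are protein-coding genes that gene prediction missed, often short ones, some are untranslated ends of known genes, and others are long noncoding RNAs, which in Drosophila melanogaster include the roX RNAs of dosage compensation. An intron gives such a transcript a strand even in a library that does not keep strand, because its splice sites are asymmetric. The fat body makes and secretes most proteins of the insect blood, the ovary builds the eggs, the midgut digests and absorbs, and the Malpighian tubules excrete and detoxify.

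Most members were simple: 590 of the 920 (64.1%) had 2 exons, 178 had 3, 78 had 4 and 74 (8.04%) had 5 or more, up to 13. Of the spliced reference transcripts 27.8% had 2 exons and 35.3% had 5 or more. The median summed exon length of members was 984 bases, with a middle range from 567 to 1864 bases and extremes of 201 and 12129 bases. It was 651 bases for single-exon intergenic transcripts and 1293 bases for spliced reference transcripts. Members just inside the exon limit, those with 2 exons, were 748 bases long in the median and had a median highest level of 5.18 FPKM (fragments per kilobase of transcript, scaled by the authors for library size). Single-exon intergenic transcripts, just outside it, had medians of 651 bases and 4.36 FPKM, both over transcripts that reached 1 FPKM for the level.

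**Figure D1:**
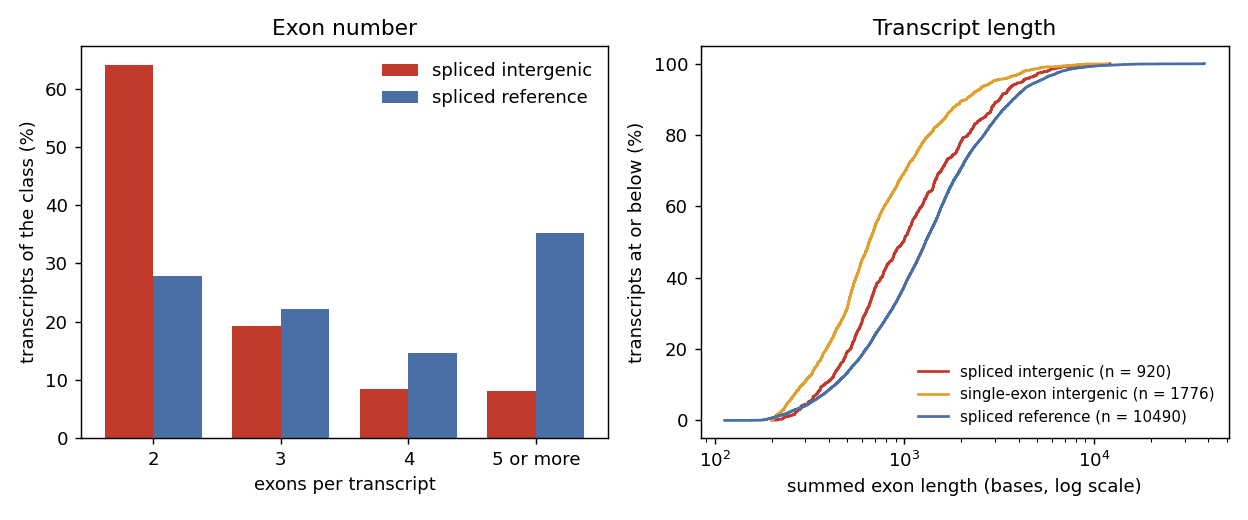
Exon number of spliced intergenic and spliced reference transcripts (left, percent of each class) and summed exon length of these and of single-exon intergenic transcripts (right, cumulative percent on a log axis). Members with 2 exons made up 64.1%, against 27.8% of spliced reference transcripts, and the length curve of members lies between those of the other classes over most of its range.

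The introns of members were mostly of the short kind that is common in flies and mosquitoes. Of 1321 distinct introns, 54.7% were 50 to 150 bases long and the median was 107 bases, against 64.5% and 85 bases for the 37438 introns of spliced reference transcripts. Long introns were also present: 90 (6.81%) exceeded 5000 bases, against 2.58% of reference introns, and the longest spanned 81195 bases. Introns under 40 bases numbered 10. Every member had a strand, 441 on plus and 479 on minus, while 1568 of the 1776 single-exon intergenic transcripts had none.

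The members with the most exons were ANSTF.1002.1 and ANSTF.1002.2 (scaffold_00004, 826674 to 833176, minus strand), a pair of 13-exon isoforms of 3531 and 3536 bases that differ in the length of 1 exon, 129 bases in the first and 134 bases in the second. Both stood highest in ovary, ANSTF.1002.2 at 1.09 FPKM and ANSTF.1002.1 at 1.77 FPKM (authors' bounds 0.731 to 2.82). ANSTF.1002.1 had 0.256 in fat body, 0.241 in the tubules and 0.0147 in midgut. ANSTF.9384.1 (scaffold_00115, 189340 to 198324, plus strand, 11 exons) was again highest in ovary, at 9.83 FPKM (8.72 to 10.95), with 2.22 FPKM in fat body, 2.18 FPKM in the tubules and 1.69 FPKM in midgut. The ovary stood above the upper bounds of the other tissues for ANSTF.1002.1 and ANSTF.9384.1. The nearest reference gene to ANSTF.9384.1, ASTEI10160, lay 1271 bases away head-to-head and was nearly level across tissues, from 64.3 to 88.1 FPKM.

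The 3 longest members belong to 1 assembled gene, ANSTF.10068 on scaffold_00175 (minus strand), whose 5 members overlap. The authors' values divide the fragments of such isoforms by estimate. ANSTF.10068.3 (11980 bases, 3 exons) had 220 FPKM in the tubules, 159 in fat body, 105 in midgut and 82.5 in ovary. ANSTF.10068.1 (12129 bases, 2 exons) was listed at 0 in fat body and had 13.1 FPKM in ovary with bounds of 7.49 to 18.8. ANSTF.10068.2 (10449 bases) had 15.2 FPKM in the tubules and less in the others. Summed over its members, ANSTF.10068 stood at 678 FPKM in the tubules, 513 in fat body, 414 in midgut and 247 in ovary. This long unit was abundant in every tissue, with 198422 estimated fragments in the Malpighian tubules library.

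A level of 1 FPKM in at least 1 tissue was reached by 857 members (93.2%), against 90.7% of single-exon intergenic and 61.1% of spliced reference transcripts. Assembled transcripts exist because these libraries covered them, whereas reference models are listed whether or not they had reads, so the first shares are high by construction. The share of reference transcripts is per transcript and not per gene, because fragments of a gene can also be assigned to its assembled isoforms. The other 63 members stayed at or below 0.992 FPKM. By tissue, where fewer cells of a type and less RNA per cell cannot be told apart, 603 members were detected in ovary, 549 in the tubules, 532 in fat body and 487 in midgut. In this order the shares were 65.5%, 59.7%, 57.8% and 52.9% of members and 57.7%, 61.4%, 59.0% and 52.3% of single-exon intergenic transcripts. Spliced reference transcripts gave 48.7%, 47.1%, 49.0% and 45.4%. Once each tissue was rescaled to the same sum (TPM, the deposited values rescaled) the counts of members were 704, 658, 542 and 459 in the same order of tissues.

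Members were expressed at low levels and less broadly than reference transcripts. The median highest level of detected members was 5.68 FPKM (middle range 2.52 to 15.7), close to the 4.36 FPKM of single-exon intergenic transcripts and below the 14.2 FPKM of spliced reference transcripts. Behind the member median stood a median of 196 estimated fragments in the top tissue. In all 4 tissues 305 members (35.6%) were detected, in 3 tissues 131, in 2 tissues 137 and in a single tissue 284 (33.1%). The last group was 135 in ovary, 66 in fat body, 45 in midgut and 38 in the tubules. Ovary also led in the other classes. Of 1225 spliced reference transcripts detected in a single tissue it was 505 in ovary, 375 in fat body, 192 in midgut and 153 in the tubules. Of 518 single-exon intergenic ones it was 204, 125, 78 and 111 in the same order. Detected single-exon intergenic transcripts were close to members in breadth, with 34.9% in all 4 tissues and 32.2% in a single one. Among detected spliced reference transcripts 59.1% were found in all 4 tissues and 19.1% in a single one. A transcript with a lower level crosses 1 FPKM in fewer tissues, and the part of level in this difference was not tested.

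**Figure D2:**
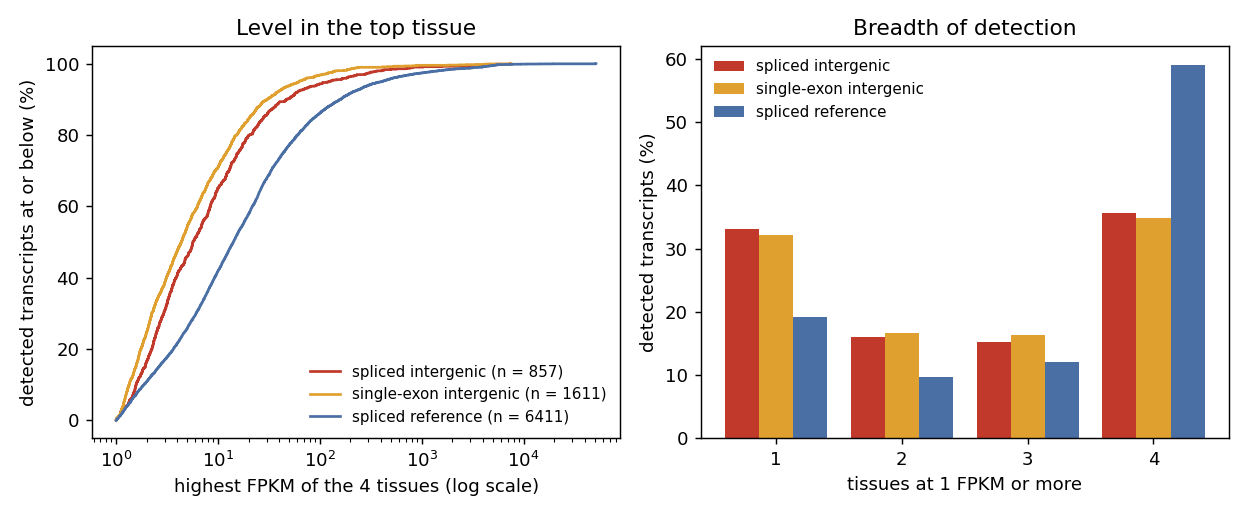
Highest FPKM of the 4 tissues for detected transcripts (left, cumulative percent on a log axis) and number of tissues at 1 FPKM or more (right, percent of detected transcripts) in the 3 classes. Members had a median of 5.68 FPKM, against 14.2 FPKM for spliced reference transcripts, and 35.6% of members were detected in 4 tissues, against 59.1%.

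A few members carried much of the RNA of the class. Of the detected members, 299 reached 10 FPKM, 48 reached 100 FPKM and 8 reached 1000 FPKM. The 6 with the highest level held 65.4% of the summed FPKM of all members for fat body, 52.1% for midgut, 45.8% for ovary and 29.5% for the tubules. All members together took 2.40% of the estimated fragments of fat body, 1.91% of the tubules, 1.89% of ovary and 1.39% of midgut. All 6 were short, between 413 and 751 bases.

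Among these 6, 3 had a like profile in all tissues. ANSTF.5135.1 (scaffold_00031, from 1038032 to 1038809 on the plus strand, 413 bases in 3 exons) had 5301 FPKM in midgut, 4836 in fat body, 2560 in ovary and 1504 in the tubules. ANSTF.8499.1 (scaffold_00085, 176407 to 177093, minus strand, 481 bases in 3 exons) had 4409 FPKM in midgut, 4217 in fat body, 2021 in ovary and 1457 in the tubules. ANSTF.7100.1 (scaffold_00057, 630812 to 631869, minus strand, 751 bases in 3 exons) had 3899 FPKM in midgut, 3108 in fat body, 1536 in ovary and 1128 in the tubules. Midgut and fat body were highest and the tubules lowest for each, and the top tissue became ovary for ANSTF.5135.1 and ANSTF.7100.1 and fat body for ANSTF.8499.1 with TPM. Their nearest reference genes were much lower: ASTEI05504, 450 bases from ANSTF.5135.1 on the same strand, did not pass 0.261 FPKM in any tissue. ASTEI09207, 149 bases from ANSTF.8499.1, stood between 28.9 and 37.6 FPKM, and ASTEI07680, 474 bases from ANSTF.7100.1, between 24.5 and 201 FPKM, both in head-to-head arrangement.

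The other 3 of the 6 were highest in fat body. ANSTF.1096.1 (scaffold_00004, from 3194804 to 3195385 on the minus strand, 495 bases in 2 exons) had 7411 FPKM in fat body (bounds 7277 to 7544), 1089 in midgut, 1006 in the tubules and 261 in ovary. Its head-to-head neighbour ASTEI01171, 979 bases away, was instead highest in midgut, with 2540 FPKM there and 1567 FPKM in fat body. ANSTF.8831.1 (scaffold_00096, 252699 to 253197, plus strand, 430 bases in 2 exons) had 2954 FPKM in fat body (2883 to 3025), 30.2 in the tubules, 23.1 in midgut and 7.01 in ovary. ANSTF.2654.1 (scaffold_00011, from 1365001 to 1366080 on the minus strand, 682 bases in 4 exons) had 3244 FPKM in fat body (3159 to 3330), 64.1 in the tubules, 16.8 in midgut and 14.7 in ovary. Fat body was far above the other 3 tissues for both.

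A member was called tissue-enriched when its FPKM + 1 was at least 5 times that of the next tissue, with at least 1 FPKM. This scale understates the difference of low transcripts. Of the 857 detected members 99 (11.6%) were enriched, from 79 assembled genes, against 10.6% of all 19648 detected transcripts, 11.7% of detected spliced reference transcripts and 6.46% of detected single-exon intergenic ones. Only a transcript at 4 FPKM or more can meet this ratio. Among those the share was 19.6% of 504 members, against 14.9% of spliced reference, 12.3% of single-exon intergenic and 14.6% of all transcripts. These shares count isoforms of an assembled gene apart. With members summed by assembled gene, 79 of the 655 sums that reached 1 FPKM (12.1%) were enriched. In 94 of the 99 the authors' bounds of the enriched tissue lay above those of every other tissue. Of all 19648 detected transcripts 2083 were enriched, and 2032 of these (10.3% of the detected) had bounds apart in this way. With TPM 154 members (17.1%) were enriched, against 15.2% of all transcripts.

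By tissue, 44 members (5.13%) were enriched in fat body, where 3.91% of all transcripts were. In ovary it was 21 members (2.45%), against 2.21% of all transcripts, in midgut 21 (2.45%), against 2.75%, and in the tubules 13 (1.52%), against 1.73%. The fat body count included 9 isoforms of a single assembled gene, and with 1 transcript per assembled gene it was 29. The order of tissues moved with scaling: with TPM the 82 members enriched in ovary were 9.12% of the 899 detected members, against 7.95% of all transcripts detected with TPM. Likewise 41 members (4.56%) were enriched in fat body, against 3.14% of all transcripts, 19 (2.11%) in the tubules, against 2.56%, and 12 (1.33%) in midgut, against 1.57%. Under both scalings 86 members were enriched in the same tissue, 40 in fat body, 21 in ovary, 13 in the tubules and 12 in midgut.

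**Figure D3:**
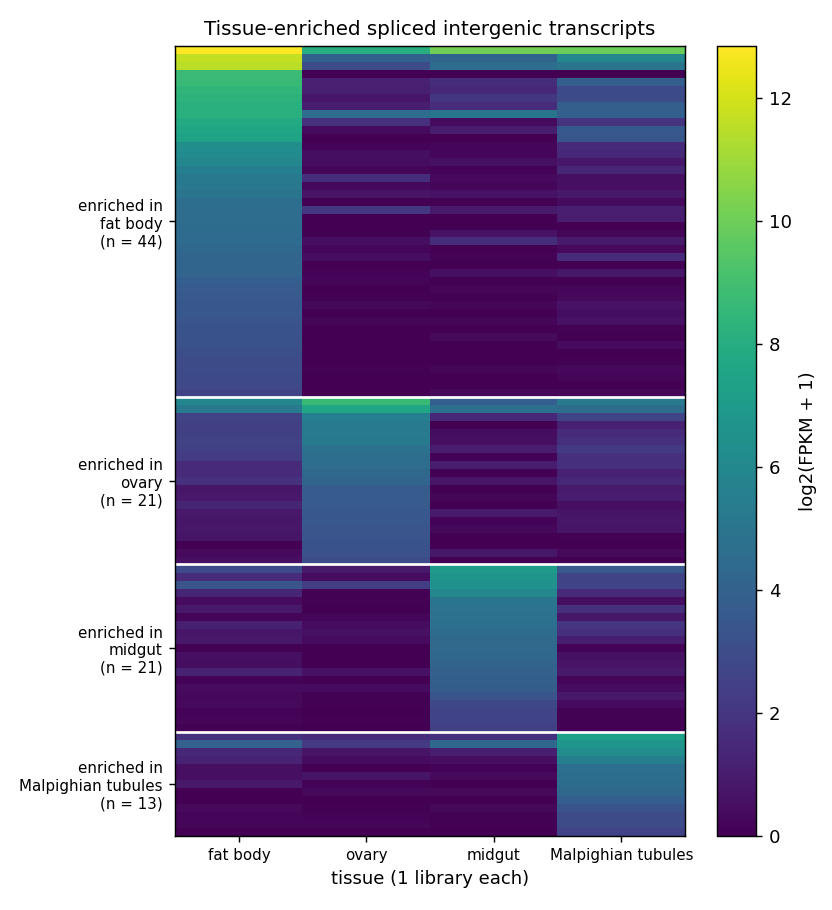
Levels of the 99 tissue-enriched members, 1 row per transcript, in the 4 libraries as log2(FPKM + 1), grouped by the enriched tissue and ordered by level. The 44 rows of fat body reach the highest values, up to 7411 FPKM, and the ovary rows often keep a visible level in fat body.

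The tissue with the next level, counted where it was above 0 and not tied, was the tubules for 30 of 41 members enriched in fat body (73.2%), against 66.2% of all transcripts enriched there. For members enriched in midgut it was the tubules in 16 of 21 (76.2%), against 62.1% of all transcripts. For members enriched in ovary it was fat body in 15 of 21 (71.4%), against 59.8%, and for those of the tubules it was fat body in 8 of 12 (66.7%), against 51.4%. The leading next tissue was the same for members and for all transcripts in each case. It was read from the deposited FPKM only and was not recomputed with TPM. With 1 transcript per assembled gene the members gave 21 of 28 for fat body, 13 of 17 for midgut, 14 of 18 for ovary and 7 of 10 for the tubules. Every other tissue stayed below 1 FPKM for 56 of the 99 enriched members (56.6%) and for 37 of 74 with 1 transcript per assembled gene. The same held for 51 of 104 enriched single-exon intergenic transcripts (49.0%), 31.8% of enriched spliced reference transcripts and 34.5% of all enriched transcripts. Under the ratio rule a call at a low level requires every other tissue to be below 1 FPKM, so these shares depend on level. Midgut calls had a median of 19.8 FPKM for members, against 120 FPKM for spliced reference transcripts. For fat body calls it was 22.8 against 56.9 FPKM, for tubules calls 22.4 against 52.0 FPKM, and for ovary calls 17.5 against 18.2 FPKM. How much of the difference between classes is due to level was not tested.

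In fat body the enriched members with the highest level after ANSTF.1096.1 were ANSTF.2654.1 and ANSTF.8831.1, with ratios on the FPKM + 1 scale of 49.9 and 94.8 to the next tissue, and 32.3 and 61.9 with TPM. The ratio of ANSTF.1096.1 was 6.80, and 4.75 with TPM, where it was no longer called. ANSTF.2654.2, an isoform of 667 bases, had 429 FPKM in fat body, while the other tissues listed it at 0. Because it shares most exons with ANSTF.2654.1 its own level is an estimate. ANSTF.2654.3 had 407 FPKM in fat body and at most 13.8 FPKM elsewhere. Over its 4 isoforms ANSTF.2654 stood at 73178 estimated fragments in fat body, 1936 in the tubules, 471 in ovary and 201 in midgut.

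ANSTF.5930 (scaffold_00039, 846338 to 850016, plus strand) held the most members of any assembled gene, 13 isoforms of 2 or 3 exons, and was picked out after its values were seen. The sum of its isoforms was 131 FPKM in fat body, 1.85 in the tubules, 0.343 in ovary and 0.0546 in midgut. These sums rest on 3139, 58, 14 and 1 estimated fragments in that order of tissues. Fat body held nearly all of its fragments. Its head-to-head neighbour ASTEI06354, 821 bases from the first isoform, lay between 6.65 and 8.42 FPKM in every tissue.

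In ovary, ANSTF.10259.1 (scaffold_00235, 7706 to 8778, minus strand, 3 exons) had 423 FPKM (bounds 383 to 463), 64.0 in fat body, 38.7 in the tubules and 13.2 in midgut. ANSTF.3429.1 (scaffold_00016, 2310328 to 2312878, plus strand, 2 exons) had 191 FPKM in ovary, 35.5 in fat body, 25.7 in midgut and 22.1 in the tubules. ANSTF.10286.1 (scaffold_00275, from position 1 to 2205, 4 exons) had 46.6 FPKM in ovary, 5.26 in the tubules, 4.76 in fat body and 1.72 in midgut. Ovary exceeded the next tissue by ratios of 6.52, 5.26 and 7.60 for these 3 on the FPKM + 1 scale, and by 13.5, 10.9 and 10.7 with TPM. All 3 stayed above 1 FPKM in every tissue. ANSTF.4289.2 (scaffold_00024, 1105212 to 1106150) had 37.3 FPKM in ovary (24.8 to 49.7), 4.35 in fat body, 1.17 in the tubules, and was listed at 0 in midgut.

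In midgut, ANSTF.8842.2 (scaffold_00097, 63795 to 65134, plus strand, 2 exons) had 134 FPKM (112 to 156), 10.95 in the tubules, 6.42 in fat body and 0.810 in ovary. ANSTF.921.2 (scaffold_00003, 5497127 to 5505371, minus strand, 6240 bases in 3 exons) had 98.4 FPKM in midgut (94.4 to 102), 5.28 in the tubules, 1.85 in fat body and 0.337 in ovary. ANSTF.7085.1 (scaffold_00057, 356271 to 359842, minus strand, 3483 bases in 2 exons) had 88.4 FPKM in midgut (81.3 to 95.5), 9.51 in fat body, 5.15 in the tubules and 4.11 in ovary. Midgut stood apart from the other tissues for each, with ratios of 11.3, 15.8 and 8.51, and with TPM of 5.54, 8.03 and 6.31. ANSTF.7085.1 ends 50 bases from ASTEI07664 in tail-to-tail arrangement, and that gene was listed at 0 in every tissue. ANSTF.7715.1 (scaffold_00066, 719017 to 720780, minus strand) had 60.8 FPKM in midgut and at most 1.98 FPKM elsewhere. One of the 21 midgut calls, ANSTF.5009.1 at 16.2 FPKM, named after its value was seen, has a midgut estimate that the authors' table marks as failed.

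In Malpighian tubules, ANSTF.11056.1 (scaffold_03625, 328 to 1129, plus strand, 731 bases in 2 exons) had 163 FPKM (145 to 180), 2.68 in midgut, 2.57 in fat body and 2.11 in ovary. ANSTF.925.1 (scaffold_00004, 17515 to 18283, minus strand, 442 bases) had 107 FPKM in the tubules (90.1 to 124), 19.6 in midgut, 15.7 in fat body and 3.58 in ovary. ANSTF.221.1 (scaffold_00001, 3893969 to 3894744, minus strand, 661 bases) had 77.6 FPKM in the tubules, 1.71 in fat body, 1.12 in midgut and 0.598 in ovary. The tubules exceeded the next tissue by ratios of 44.4, 5.24 and 29.0, and by 47.8, 10.05 and 45.9 with TPM. ANSTF.1967.1 (scaffold_00008, 80565 to 81391, plus strand) had 46.3 FPKM in the tubules and at most 1.39 FPKM elsewhere. The neighbour of ANSTF.925.1 was itself enriched in another tissue: ASTEI00991, head-to-head at 1885 bases, had 34.2 FPKM in ovary and at most 5.58 FPKM elsewhere. The neighbour of ANSTF.1967.1, ASTEI02051, 958 bases away on the same strand, was broadly present at 17.7 to 34.3 FPKM.

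The tissue with the highest level, enriched or not, was ovary for 341 of the 857 detected members (39.8%), midgut for 216 (25.2%), fat body for 153 (17.9%) and Malpighian tubules for 147 (17.2%). With TPM, 899 members reached 1 and ovary was highest for 50.9%, Malpighian tubules for 26.0%, fat body for 13.3% and midgut for 9.68%. Spliced reference transcripts gave 36.2% for ovary, 28.8% for midgut, 21.5% for fat body and 13.5% for Malpighian tubules with deposited values, and 53.0% for ovary with TPM. Across the 857 detected members, Spearman's correlation of FPKM was 0.69 between midgut and Malpighian tubules, 0.63 between fat body and Malpighian tubules and 0.39 between ovary and midgut. The same pairs gave 0.83, 0.78 and 0.59 across 6411 spliced reference transcripts. The points of each correlation are transcripts of the same libraries, each with its own depth and scaling.

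Members that share an assembled gene did not always share a tissue. Of the 693 assembled genes 557 had 1 member, and the other 136 held 363 members. Among 120 assembled genes with at least 2 detected members, the top tissue differed between members in 38, and in 35 with TPM. How fragments are divided between overlapping isoforms bears on these counts, and its part was not tested.

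Of the 920 members, 688 (504 assembled genes) lay on a scaffold with a reference gene and 232 (25.2%) on 184 scaffolds without one. Of single-exon intergenic transcripts 67.4% lay on scaffolds without a reference gene. The annotation of the 184 scaffolds reached only a short way. Their last annotated coordinate had a median of 1056 bases and was under 5000 bases for 173 of them, and 100 of the 232 members began within 10 bases of position 1. The last annotated coordinate is a lower bound, and the length of these scaffolds was not measured. Members there were shorter, at a median of 600 bases, with 1147 bases for members that had a gene on the scaffold. They were detected as often (93.1% against 93.2%) and at a like median highest level, 6.25 FPKM against 5.62 FPKM. In all 4 tissues 43.1% were detected, against 33.1% with a gene on the scaffold, and 25 were tissue-enriched (11.6%), against 74 (11.5%). Malpighian tubules had 6 of their 13 enriched members on such scaffolds, among them ANSTF.11056.1, ovary 9 of 21, fat body 8 of 44 and midgut 2 of 21.

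For the 688 members with a reference gene on the scaffold, the nearest one lay at a median distance of 1776 bases, counted between the closest coordinates. The middle range was 601 to 6198 bases, 251 members (36.5%) lay within 1000 bases and 491 (71.4%) within 5000 bases. Single-exon intergenic transcripts lay farther off, with a median of 4525 bases, and spliced reference transcripts had their nearest other gene at a median of 1362 bases. Single-exon transcripts just past a gene end have a class of their own in the annotation (324 transcripts, none of them spliced), which keeps them out of the single-exon median. The distance of members depended on how far a gene reaches. With the gene span widened by assembled isoforms the median was 682 bases, and 148 members then overlapped such a span, 61 on the same strand and 87 on the opposite one. The assembly put 52 members into an assembled gene that also holds a reference gene.

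The strand of a member is the one given in the deposited annotation, and it was not checked against splice-site sequence. The strand of the nearest gene was the same for 317 of the 688 members (46.1%) and opposite for 371 (53.9%). Head-to-head pairs, in which the 5' ends face each other, made up the most members over all distances, 236 (34.3%). The same strand downstream of the gene held 184 (26.7%), tail-to-tail pairs 135 (19.6%) and the same strand upstream 133 (19.3%). Spliced reference transcripts and their nearest other gene showed another order, with 34.5% tail-to-tail, 24.6% with the transcript upstream on the same strand, 21.8% head-to-head and 19.2% downstream on the same strand, over 9709 transcripts that do not overlap that gene. Within 1000 bases 90 of 251 members (35.9%) were head-to-head, against 15 of 39 single-exon intergenic transcripts with a strand (38.5%) and 22.5% of 3938 reference transcripts. Of these 39, 0 lay downstream on the same strand, because single-exon transcripts just past a gene end have a class of their own. Their head-to-head share is therefore not over a like set of arrangements. Over all distances single-exon intergenic transcripts with a strand gave 40 of 145 (27.6%). Within 500 bases the order of members was another, with 56 tail-to-tail, 42 head-to-head, 25 downstream and 24 upstream on the same strand. Tail-to-tail also came first for spliced reference transcripts at this distance, with 1167. They had 426 upstream and 371 downstream on the same strand, and head-to-head came last with 323. With 1 transcript per assembled gene the head-to-head share of members was 32.9%. Tail-to-tail members lay closest, at a median of 912 bases.

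**Figure D4:**
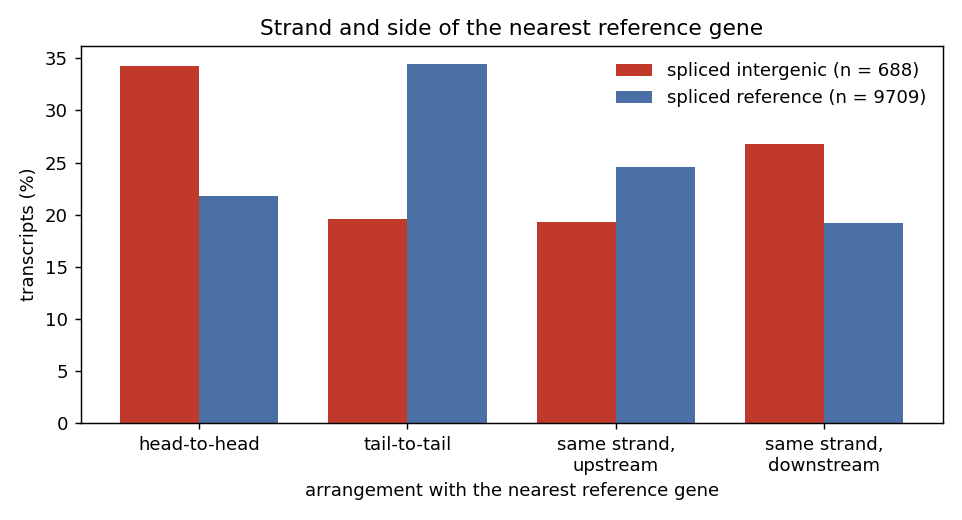
Arrangement of 688 members and of 9709 spliced reference transcripts with the nearest reference gene, in percent of each. Head-to-head pairs made up 34.3% of members, against 21.8% of reference transcripts, and tail-to-tail pairs 19.6%, against 34.5%.

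Level and breadth of members were lower the farther the nearest gene lay. The median highest level of detected members was 9.94 FPKM up to 500 bases, 7.14 FPKM from 500 to 1000 bases, 5.35 FPKM from 1000 to 5000 bases, 3.70 FPKM from 5000 to 20000 bases and 2.24 FPKM beyond. The share detected in all 4 tissues was 60.4% of 139, 35.1% of 97, 31.1% of 225, 13.8% of 130 and 12.0% of 50 in the same order. With TPM these shares were 59.2%, 35.0%, 31.5%, 16.7% and 15.5%, and with 1 transcript per assembled gene 60.6%, 40.8%, 33.5%, 14.4% and 10.3%. Single-exon intergenic transcripts gave 63.0%, 42.9%, 28.3%, 19.9% and 14.1%. Spliced reference genes, by distance to the next gene, gave 79.3%, 81.1%, 77.0%, 61.9% and 47.3%, so they too were least broad where genes are far apart. Their levels are sums over the transcripts of a gene, while intergenic levels are those of single transcripts. The height of the reference shares is therefore not on a like measure. Tissue-enriched members were 8 of 139 (5.76%) up to 500 bases, 11 of 97 (11.3%), 29 of 225 (12.9%) and 22 of 130 (16.9%) in the next bins, and 4 of 50 (8.0%) beyond 20000 bases, beside 10.6% of all detected transcripts.

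**Figure D5:**
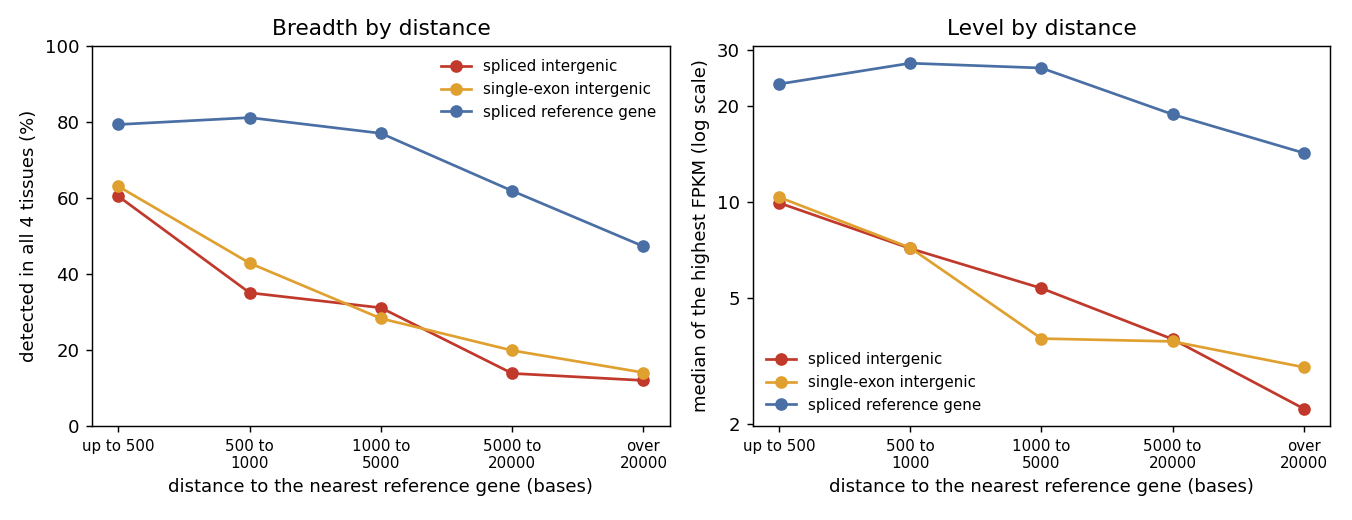
Percent of detected transcripts found in all 4 tissues (left) and median of the highest FPKM (right, log axis) by distance to the nearest reference gene, for both intergenic classes and for spliced reference genes against their nearest other gene. Members go from 60.4% up to 500 bases to 12.0% beyond 20000 bases, and reference genes from 79.3% to 47.3%. Levels of reference genes are sums over the transcripts of a gene, and those of the intergenic classes are of single transcripts.

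Members shared the top tissue with their neighbour about as often as the other classes did. Where both reached 1 FPKM, 218 of 527 members (41.4%) had the same top tissue as the nearest reference gene, against 154 of 361 single-exon intergenic transcripts (42.7%) and 2359 of 6474 reference genes with their nearest other gene (36.4%). With TPM the shares were 45.5% for members, 48.2% for single-exon intergenic transcripts and 47.4% for reference genes, so the order of the classes changed. Levels of reference genes are sums over their transcripts, while those of the intergenic classes are of single transcripts. By distance the share of members was 44.5% up to 500 bases, 37.8% from 500 to 1000 bases, 37.7% from 1000 to 5000 bases, 48.9% from 5000 to 20000 bases and 40.7% of 27 beyond, with no steady trend. Next to 27 of 236 detected members (11.4%) the gene within 1000 bases stayed below 1 FPKM in every tissue, against 17 of 74 single-exon intergenic transcripts (23.0%) and 12.7% of detected reference genes.

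Of 48 tissue-enriched members with a gene within 5000 bases, 8 (16.7%) had a neighbour enriched in the same tissue, and for spliced reference genes it was 106 of 654 (16.2%). Reference genes were again called on gene sums, and members as single transcripts. Within 1000 bases it was 2 of 19 members (10.5%), against 67 of 315 reference genes (21.3%). Counted by assembled gene it was 5 of 36 within 5000 bases and 2 of 16 within 1000 bases. The 8 members include 4 isoforms of 1 assembled gene. ANSTF.2654 with 4 isoforms lies 1481 bases downstream of ASTEI02815 (scaffold_00011, 1367561 to 1368231, minus strand) on the same strand. That gene had 6197 FPKM in fat body and at most 109 FPKM elsewhere. ANSTF.8831.1 lies 405 bases upstream of ASTEI09551 (253602 to 253894, plus strand), which had 252 FPKM in fat body, 4.25 in the tubules, 1.45 in ovary and was listed at 0 in midgut. In this pair the intergenic transcript was the more abundant, at 2954 FPKM in fat body.

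The remaining 3 pairs were named after their values were seen. ANSTF.4084.1 (scaffold_00022, 1872717 to 1873281, plus strand, 489 bases) had 312 FPKM in fat body, 6.62 in the tubules, 3.30 in midgut and 0.700 in ovary. ASTEI04379, head-to-head at 3664 bases, had 41.8 FPKM in fat body and at most 0.453 FPKM elsewhere. ANSTF.7751.1 (scaffold_00067, 272115 to 275422, plus strand, 6 exons) had 19.8 FPKM in midgut and at most 0.108 FPKM elsewhere, and ASTEI08400, 3559 bases downstream of it on the same strand, had 69.1 FPKM in midgut and at most 1.71 FPKM elsewhere. ANSTF.5440.1 (scaffold_00034, 415209 to 417964, plus strand) had 24.7 FPKM in midgut and 2.79 in the tubules, and ASTEI05833, head-to-head at 33 bases, had 45.1 FPKM in midgut and 8.07 in fat body. With TPM this last pair fell short of the ratio, at 3.63 for the member and 3.60 for the gene. Member and gene of each of the other 2 pairs kept the call.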

How the data were processed

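The submitters' processing notes name CASAVA 1.8 and StringTie 1.2.1, and HISAT2 and Cuffdiff without a version. The genome build is not given in the sources used here, and positions are 1-based on the scaffolds of the deposited transcript annotation. The FPKM values with their lower and upper bounds of 25785 transcripts are those the authors deposited, per the file headers. The deposited values named counts are a scaled signal and not raw counts. Their low values were sums of 2 steps (each library ran on 2 lanes) in 98.5% to 99.2% of cases within 0.1%, and dividing by the mean step gave the estimated fragments. The FPKM keep a scaling between tissues, so TPM (each tissue rescaled to the same sum over all transcripts, log2 factors from -0.35 in midgut to 1.14 in ovary) was used as the alternative.

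The reference gene span was that of the 12348 matching models, and gene levels were sums over 12340 genes of transcripts that match the model, are contained in it, share a junction with it or overlap its exons. None of these identifiers was found in the RefSeq table of 15394 genes. Members, lists and rules were chosen with earlier results of these data known. Named were the 6 members with the highest FPKM, the 4 highest enriched per tissue, the 3 with the most exons, the 3 longest and the 4 highest with a neighbour enriched in the same tissue within 5000 bases. With 1 library per tissue no test was fitted. The procedures for calls and steps were tested on simulated data. Distances were checked against a direct search over real positions of intergenic transcripts, and arrangement on a small made-up example. Python 3.11, numpy 2.4.6, pandas 2.3.3 and matplotlib 3.10.9 were used.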

Additional observations from a re-analysis of the deposited data

How the results depend on the processing

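No paired analysis was possible, because each tissue has 1 library and the labels give no replicate number that pairs tissues. No library was left out for the same reason. Values given first here are those of the alternative.

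At 5 FPKM in place of 1 FPKM, members were detected in 251 cases in fat body (532 at 1 FPKM), 262 in ovary (603), 248 in midgut (487), 257 in Malpighian tubules (549) and 463 in any tissue (857). At 0.1 FPKM it was 811 in fat body and 833 in the tubules, and 358 in the tubules with the lower bound at 1 FPKM. Tissue-enriched members moved most with the ratio. At a ratio of 2 there were 92 in fat body, 163 in ovary, 72 in midgut, 48 in the tubules and 375 in any tissue. At a ratio of 10 there were 26, 0, 11, 8 and 45 in the same order. With a pseudocount of 0.1 FPKM there were 71, 91, 40, 27 and 229. For these ratios and this pseudocount no share over all transcripts is given, so the counts do not set members against other transcripts. With TPM ovary had 82, midgut 12 and any tissue 154, and with 1 transcript per assembled gene fat body had 29. As top tissue, with TPM, fat body had 13.3%, ovary 50.9%, midgut 9.68% and the tubules 26.0%, and at 5 FPKM ovary had 32.2% and midgut 30.2%. The median distance with the wider gene span was 682 bases. The order of tissues turned with TPM: by enriched members ovary stood above fat body, and by top tissue the tubules stood above midgut. Of 91 recomputed values, the 57 not given here as changed lay within 1.5 times the reported value for counts, or within the 95% interval of the reported share or median. For strand, arrangement and shared top tissue, the alternatives of 1 transcript per assembled gene, of genes within 5 kb and of leaving out members in a reference gene's assembled gene were partly chosen after seeing the data. The head-to-head share was 32.9% to 37.1% under them. Low members limit the precision: 196 estimated fragments in the top tissue was the median, and the authors' bounds cover counting and assignment within 1 library and not the spread between mosquitoes.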
